A study of Mus musculus with 28 samples.

Results

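Fatty acid oxidation is described here through 38 genes of the mouse heart, which break down fatty acids in mitochondria and in peroxisomes or carry them across the mitochondrial membrane by the carnitine shuttle. The genes were chosen by name for these roles, out of 19324 genes named in the probe annotation of the arrays. Earlier results of these data were known when they were chosen. All 38 were found, on 71 of the 45037 probe sets tested. A probe set is a group of short probes that reads 1 transcript or a few alike. For summaries each gene was represented by the brightest of its probe sets, judged on the mean of all 28 arrays. This gave 37 probe sets because the thiolase genes Acaa1a and Acaa1b share theirs. The mitochondrial set held 20 genes on 20 such probe sets, and the peroxisomal set held 17 genes on 16. Crat of the mitochondrial set and Eci2, Scp2 and Amacr of the peroxisomal set have more than 1 location in the cell, and each was counted in 1 set. Acot1, a thioesterase of the cytosol, stood in neither set.

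Total RNA from frozen heart tissue was measured on 28 one-colour arrays, in 4 groups of 7. Untreated control animals, untreated animals of the del337TR strain, control animals given WY14643 and del337TR animals given WY14643 made up the groups. WY14643 activates PPARalpha, a nuclear receptor that switches on genes of fatty acid use, and the labels describe del337TR as a deletion, in a series on resistance to thyroid hormone, a condition in which a mutant hormone receptor answers poorly. The sources used here do not state the gene that carries the deletion, the zygosity, the genetic background, the age, the dose or how long the drug was given. They name no allele or agent shared by all groups. The design text counts individuals but nothing says how they were bred or housed, so p-values measure the spread between these samples.

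Beta-oxidation shortens a fatty acid by cycles of dehydrogenation, hydration, a further dehydrogenation and thiolytic cleavage. In mitochondria it runs on fatty acids that the carnitine shuttle has brought in, and it supplies most of the fuel of the beating adult heart. Peroxisomes start on very long and branched chains that mitochondria handle poorly, pass the shortened products on, and make hydrogen peroxide that catalase removes. Many genes of both routes are classical PPARalpha targets in liver, and a smaller number is known to respond in heart.

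The arrays had the profile of heart muscle. The 9 cardiomyocyte markers were among the bright signals of every array, and the dimmest of them, Ryr2, ran from 4518.6 to 6704.7. Markers of skeletal muscle stayed at or below 93.1 on every array. The 3 atrial markers, summed, ran from 116.4 to 33331.2 between arrays, and so differed far more than the members did. By Xist and Eif2s3y the female arrays numbered 2 of 7 in untreated controls, 3 in treated controls, 4 in untreated del337TR and 1 in treated del337TR. The number of arrays limited the precision, and in whole tissue fewer cells of a type and less RNA per cell cannot be told apart.

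PPARalpha binds DNA with its partner RXR at a direct repeat of a six-base core with a spacer of 1 base, AGGTCANAGGTCA, where N is any base. The RefSeq promoter windows (build GRCm38.p6) were searched for it in the 250 bases before each start, on both strands, allowing at most 2 mismatches in the 12 defined bases. Windows were available for 31 of the 38 members and were not used here for Acaa2, Decr1, Cpt1b, Crat, Hsd17b4, Abcd2 and Amacr. Of the 31 members 3 held a match, against 3.72% of all 27025 genes with a window, and none held a match with at most 1 mismatch, against 0.566%. With 3 mismatches allowed, the counts were 7 of 31 members and 23.7% of all genes. The stretches around the 3 matches are shown because these were the members whose letters came closest to the element, with the match in capitals and in the 5′ to 3′ direction of the gene.
Echs1 (chr7:140116468-140116528, minus strand, 83 to 71 bases before the start): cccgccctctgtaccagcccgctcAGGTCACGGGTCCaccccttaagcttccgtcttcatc
Etfa (chr9:55512284-55512344, minus strand, 77 to 65 bases before the start, match on the opposite strand): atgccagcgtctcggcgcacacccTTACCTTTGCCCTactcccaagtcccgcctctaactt
Cat (chr2:103485321-103485381, minus strand, 204 to 192 bases before the start): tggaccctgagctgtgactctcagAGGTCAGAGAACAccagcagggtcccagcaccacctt
Such a match describes the letters only, and its absence from a window of this length says nothing of binding elsewhere. With WY14643 in controls Echs1, the hydratase of short chains, stood at a log2 difference of 0.13 ± 0.07 (SE, n = 7 per group), Etfa, a subunit of the electron transfer flavoprotein, at 0.16 ± 0.09, and Cat, catalase, at -0.04 ± 0.09.

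The comparison of treated with untreated controls asked whether the PPARalpha activator alone moved these genes in the heart. Of the 20 mitochondrial members 19 stood higher with WY14643, with a median log2 difference of 0.10, and of the 16 peroxisomal probe sets 11 did, with a median of 0.06. Over all probe sets 44.6% stood higher and the median was -0.03. Bright probe sets as a whole leaned the same way: of the 1760 with a mean signal above 2000, 78.2% stood higher, with a median of 0.08. The mitochondrial members were on average the brighter ones, with a mean log2 signal of 12.28 against 9.58 for the peroxisomal ones in untreated controls. No member passed limma's test at an adjusted p under 0.05, and neither did any probe set of the array (0%).

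Scaling of the arrays moved this count. After quantile normalization 13 of 20 mitochondrial members stood higher, with a median of 0.01, and 10 of 16 peroxisomal ones, with 0.03. Centring each array on its median brought 20 and 15, with medians of 0.16 and 0.12. Centring on the bright probe sets, an alternative added after the data were seen, gave 13 with a median of 0.03, and 7 with a median of -0.01, so there the peroxisomal direction turned. Under that centring the median of all probe sets lay at -0.11.

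Of the 37 members 3 had an unadjusted p under 0.05 with WY14643 in controls, all higher, where 2.39% of all probe sets were higher and 4.36% lower at that p. They were Acadvl, Etfb and Abcd3. Of the 1760 bright probe sets 173 were higher and 13 lower at that p. None of the 37 separated the groups completely, which 0.0866% of all probe sets did.

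Acadvl encodes the very long chain acyl-CoA dehydrogenase, which takes the first step on long chains at the inner mitochondrial membrane. Its signal had a lowest, median and highest value of 6052.7, 7070.1 and 8059.6 in untreated controls and of 7745.8, 7997.5 and 10004.0 in treated controls. All 7 treated arrays lay above the median of the untreated ones and 3 above all of them, and the ranges overlapped. The log2 difference was 0.24 ± 0.08 (SE, n = 7 per group), a 1.18-fold level, with a limma adjusted p of 0.698 and a 95% interval from 0.07 to 0.41. Leaving out 1 array moved it between 0.19, without replicate 7 of the treated controls, and 0.27. Over the other alternatives it ran from 0.12 to 0.30.

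Etfb, the beta subunit of the flavoprotein that collects electrons from the acyl-CoA dehydrogenases, ran from 8098.5 over a median of 10171.0 to 11602.8 in untreated controls. In treated controls it ran from 9398.2 over 11471.8 to 13221.3. Here 6 of 7 treated arrays lay above the untreated median. This was a log2 difference of 0.22 ± 0.09, with a limma adjusted p of 0.698. Leaving out 1 array moved it between 0.17 and 0.26, and over the other alternatives it ran from 0.09 to 0.28. The partner subunit Etfa stood at 0.16 ± 0.09 and Etfdh, the oxidoreductase that passes the electrons to ubiquinone, at 0.10 ± 0.08, so the 3 genes of this step pointed the same way.

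Abcd3 encodes the peroxisomal membrane transporter PMP70, which imports branched and long acyl-CoA. Untreated controls had a lowest, median and highest signal of 1830.3, 1856.7 and 2367.9, and treated controls of 1697.5, 2415.6 and 2742.4. Treated controls were the more scattered: 4 of them lay above all untreated controls and 1, replicate 5, below all. The log2 difference was 0.24 ± 0.10, with a limma adjusted p of 0.716. Leaving out 1 array moved it between 0.20, without replicate 1 of the treated controls, and 0.31, without replicate 5. Over the other alternatives it ran from 0.05 to 0.30.

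Replicate 5 was the lowest of the treated controls for other members too. Cpt2, the carnitine palmitoyltransferase of the inner membrane that rebuilds acyl-CoA in the matrix, ran from 2467.3, on replicate 5, over 3520.4 to 4500.9 in treated controls. Untreated controls ran from 2483.1 over 3085.0 to 4101.7. Cpt2 thus stood at 0.22 ± 0.12, at 0.31 without replicate 5 and at 0.17 without replicate 1 of the treated controls. Over the other alternatives it ran from 0.15 to 0.29. Pex11a, a membrane protein of peroxisome division, stood at 0.22 ± 0.12, with 604.7 on replicate 5 and a median of 905.1 in treated controls against 683.8 in untreated ones. Its second probe set stood at 0.18 ± 0.15. Leaving out 1 array moved the value of its brightest probe set between 0.17 and 0.31.

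The core of the mitochondrial spiral showed small differences in 1 direction. Hadha and Hadhb, the 2 subunits of the trifunctional protein, stood at 0.09 ± 0.08 and 0.16 ± 0.09, Hadh, the dehydrogenase of shorter chains, at 0.14 ± 0.09, and the thiolase Acaa2 at 0.02 ± 0.08. Hadha varied little in treated controls, where it ran from 8247.3 to 8642.6 (mean 8484.5 ± 136.8, SD, n = 7), against 6806.4 to 9088.8 in untreated controls. Acadl, Acadm and Acads, the dehydrogenases of long, medium and short chains, stood at 0.08 ± 0.09, 0.10 ± 0.09 and 0.02 ± 0.08. The isomerase Eci1 and the reductase Decr1, both needed for unsaturated chains, stood at 0.11 ± 0.09 and 0.05 ± 0.09.

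Of the 5 genes of the carnitine shuttle 4 stood higher, with a median of 0.07, Cpt2 having the highest value at 0.22. Cpt1b, the muscle form of the rate-limiting transferase, ran from 4019.5 over 4750.1 to 4908.8 in untreated and from 3036.9 over 4524.2 to 5957.4 in treated controls. Its log2 difference was -0.01 ± 0.10, and its only probe set also names Chkb and Gm44502. Cpt1a, the liver form, stood at 0.02 ± 0.12 on its brightest probe set, while its dimmer ones stood at -0.37 ± 0.14 and -0.31 ± 0.19. The carrier Slc25a20 and the acetyltransferase Crat stood at 0.07 ± 0.11 and 0.07 ± 0.08.

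In the peroxisomal set the highest value of a matrix enzyme was that of Ehhadh, the L-bifunctional enzyme, at 0.23 ± 0.27. Hsd17b4, the main bifunctional enzyme of branched chains, stood at 0.05 ± 0.08, the sterol carrier thiolase Scp2 at 0.05 ± 0.10, and the shared probe set of Acaa1a and Acaa1b at 0.12 ± 0.09. Acox3, the branched chain oxidase, stood at 0.10 ± 0.17 and the epimerase Amacr at 0.09 ± 0.08. Crot, which exports shortened acyl groups as carnitine esters, stood at -0.03 ± 0.09, and Phyh, the hydroxylase that starts alpha-oxidation of phytanic acid, at 0.08 ± 0.08. Pecr, Decr2 and Eci2, the reductases and isomerase of peroxisomal unsaturated chains, stood at 0.07 ± 0.12, -0.00 ± 0.11 and 0.06 ± 0.08.

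**Figure D1:**
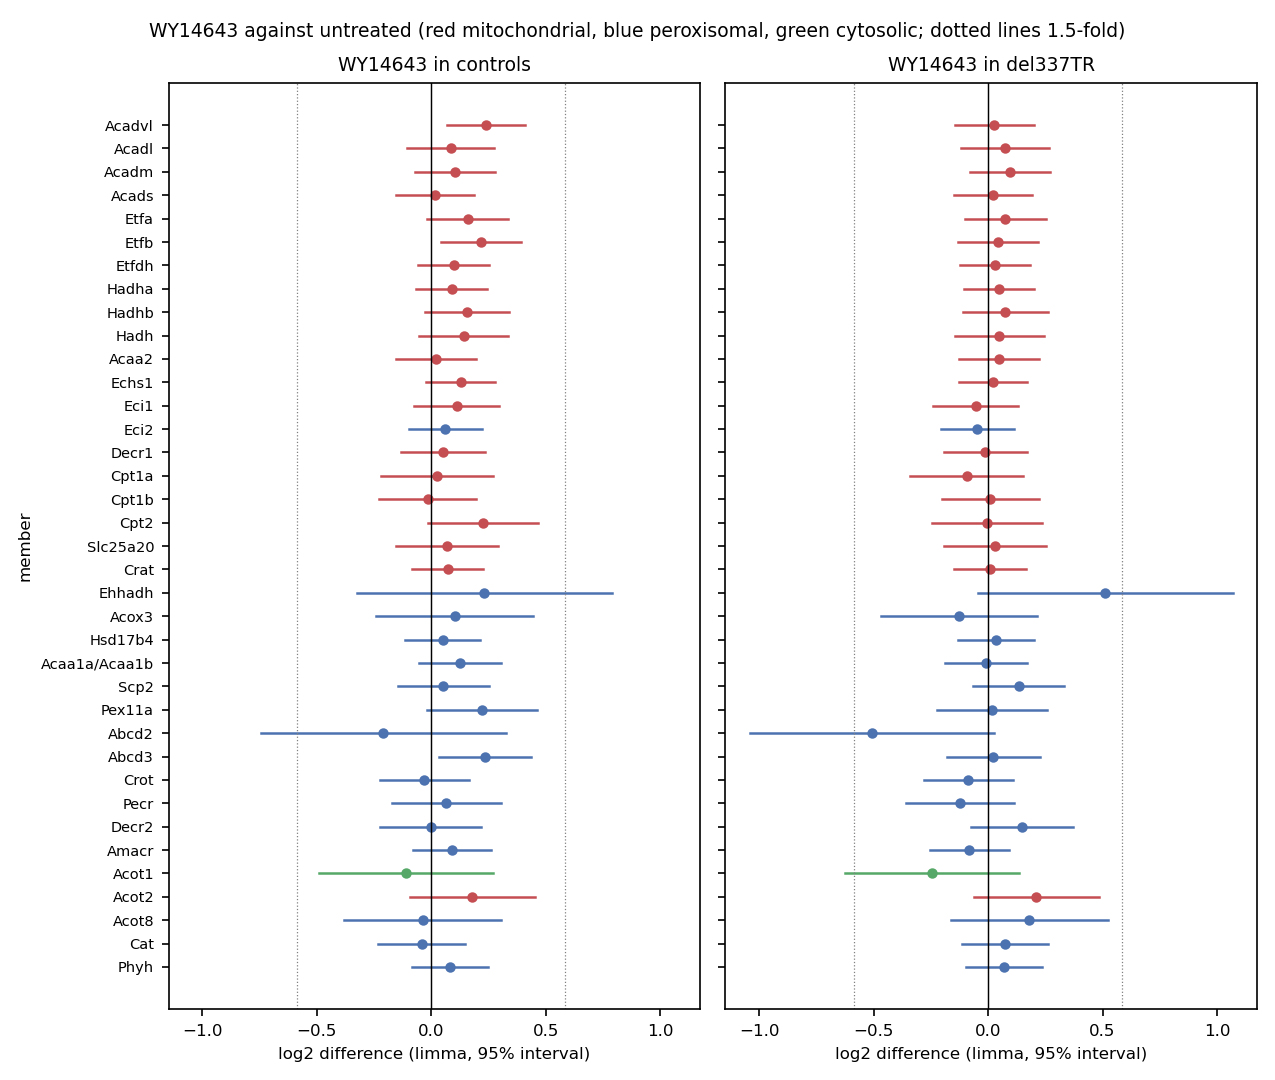
Log2 difference of each of the 37 member probe sets with WY14643 against untreated, in controls on the left and in del337TR on the right, with limma's 95% interval as a line and mitochondrial, peroxisomal and cytosolic members in red, blue and green. In controls 30 of 37 points lie above 0 and the highest stands at 0.24, in del337TR 25 of 37 lie above 0, and Ehhadh and Abcd2 have the widest intervals.

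In del337TR hearts the same treatment was compared with untreated del337TR. Of the mitochondrial members 16 of 20 stood higher, with a median of 0.03, and of the peroxisomal ones 9 of 16, with a median of 0.02, where 53.1% of all probe sets stood higher with a median of 0.02. No member passed limma's test at an adjusted p under 0.05 (0% of all probe sets) or had an unadjusted p under 0.05, where 2.95% of all probe sets were higher and 2.83% lower at that p. No member separated the groups, which 0.0733% of all probe sets did. Centring on the median turned both directions, with 9 of 20 and 6 of 16 members higher and medians of -0.01 and -0.02, while quantile normalization left 12 and 9 and centring on the bright probe sets 12 and 7 higher. Leaving out replicate 4 of the treated del337TR arrays also brought the mitochondrial median to -0.01.

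The largest values were on a pair of peroxisomal genes of opposite direction. Ehhadh, the L-bifunctional enzyme and a classical liver target of PPARalpha, ran from 220.3 over 279.0 to 401.2 in untreated and from 206.2 over 486.5 to 688.7 in treated del337TR. Of the treated arrays 4 lay above all untreated ones and 1 below all. On the log2 scale Ehhadh stood at 0.51 ± 0.27, 1.43-fold, with a limma adjusted p of 0.888 and an interval from -0.05 to 1.07. Untreated controls spread from 244.4 to 638.8, where 2 arrays stood at 556.1 and 638.8 and the other 5 at or below 305.3. Treated controls had a median of 427.1, and the log2 difference in controls was 0.23 ± 0.27.

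Abcd2, a peroxisomal transporter of very long chains that is abundant in fat, ran from 47.7 over 102.7 to 149.9 in untreated and from 49.5 over 61.2 to 135.2 in treated del337TR. On the log2 scale Abcd2 stood at -0.51 ± 0.26, with a limma adjusted p of 0.875. Its other probe sets, all dimmer, stood at -0.01 ± 0.45, 0.15 ± 0.56 and 0.00 ± 0.40. White adipocyte markers were lower in the same comparison: 0 of the 4 measured stood higher, with a median of -1.19, and their summed signal ran from 430.9 to 642.8 in treated against 655.6 to 951.6 in untreated del337TR. None of these was at 0, though Cidec was as low as 1.7 and Adipoq as 16.9 on an array. With the adipocyte markers as a covariate, added after the data were seen, Abcd2 stood at 0.02 and Cpt1a at 0.07, where Cpt1a had stood at -0.09 ± 0.12. The mean log2 of these markers was 6.78 (SD 0.29) in untreated and 5.58 (SD 0.40) in treated del337TR. A covariate that differs so between the groups can take up a group difference of any source. The part of fat in the values of Abcd2 and Cpt1a was not tested.

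Of the 6 members with the highest log2 differences in controls, Ehhadh had the highest value in del337TR as well, and the others stood between -0.01 and 0.04 there. Because these 6 were picked for high values in controls, smaller values in another comparison would follow from the choice alone. They do not show that a response was lost in del337TR. Acadvl ran from 6586.2 over 7207.3 to 8045.6 in untreated and from 6241.3 over 7131.0 to 8559.0 in treated del337TR, a log2 difference of 0.03 ± 0.08. Etfb stood at 0.04 ± 0.09, Cpt2 at -0.01 ± 0.12, Abcd3 at 0.02 ± 0.10 and Pex11a at 0.02 ± 0.12. The thioesterase Acot2 stood at 0.21 ± 0.13, and at 0.09 without replicate 4 of the treated arrays, where its signal was 1707.1 against a next highest of 1131.6. Acot8, a thioesterase of peroxisomes, stood at 0.18 ± 0.17 and Acot1 at -0.25 ± 0.18, on a probe set that also names Acot2. Acadm stood at 0.09 ± 0.09.

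**Figure D2:**
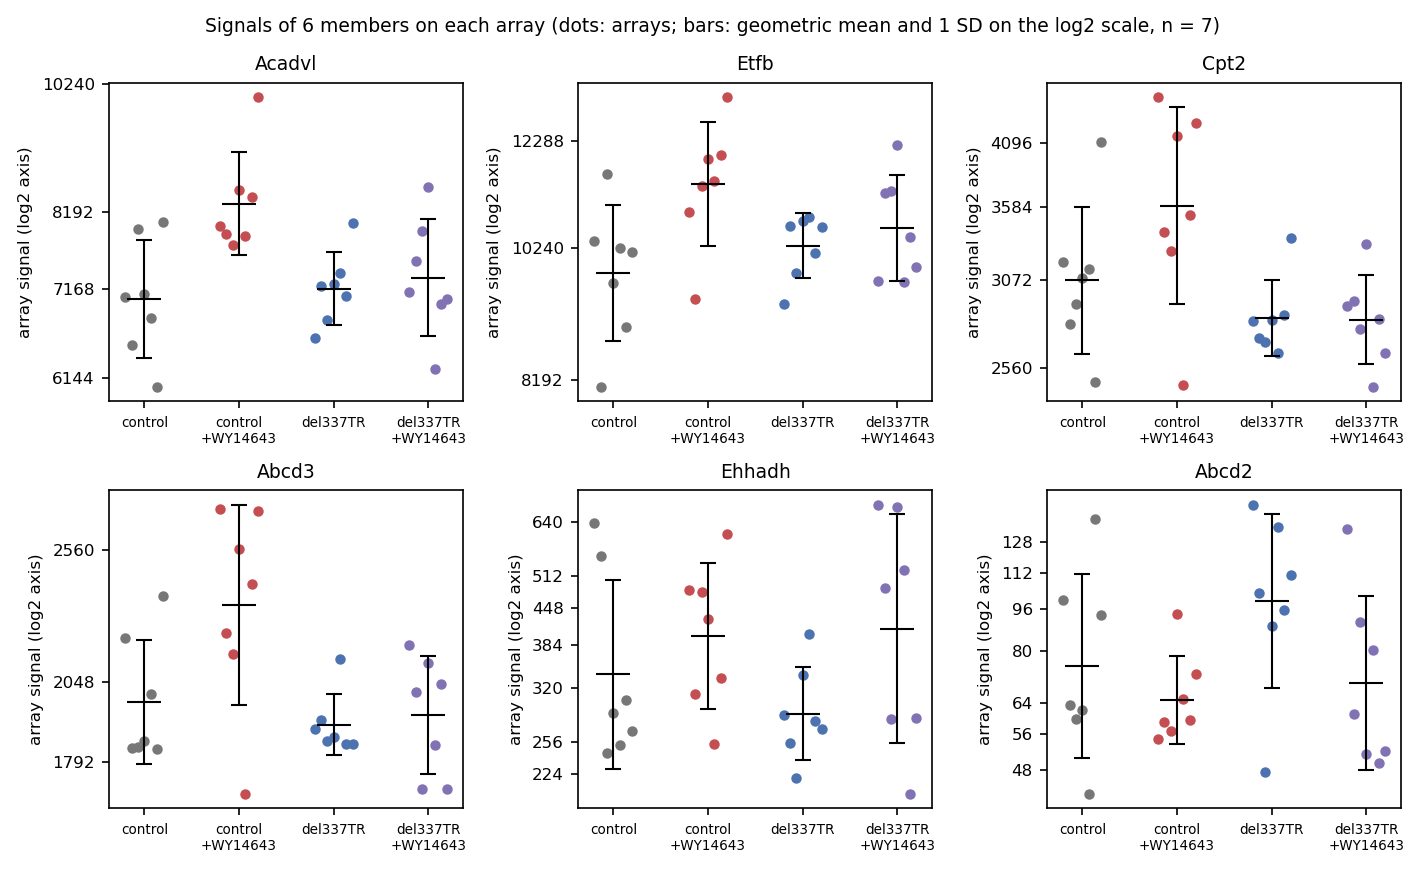
Signals of Acadvl, Etfb, Cpt2, Abcd3, Ehhadh and Abcd2 on every array of the 4 groups, on a log2 axis, with bars for the geometric mean and 1 SD on the log2 scale (n = 7). The ranges of the groups overlap for all 6 genes, and treated controls reach 4500.9 for Cpt2 and 2742.4 for Abcd3 while replicate 5 of that group lies at 2467.3 and 1697.5.

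Whether the strain altered the response was tested as an interaction, the effect of WY14643 in del337TR minus that in controls. No member passed limma's test for it (0% of all probe sets at an adjusted p under 0.05), and none had an unadjusted p under 0.05, where 3.26% of all probe sets were higher and 1.65% lower at that p. The mitochondrial median was -0.07, with 4 of 20 members above 0, and the peroxisomal median -0.08, with 5 of 16. Over all probe sets 55.6% stood above 0, with a median of 0.04, and over the bright ones 33.6%, with a median of -0.06. After quantile normalization 9 of 20 and 7 of 16 members stood above 0, after centring on the median 0 of 20 and 4 of 16, and after centring on the bright probe sets 8 and 7.

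Cpt2 stood at -0.23 ± 0.17 (limma adjusted p = 0.956), Acadvl at -0.21 ± 0.12, Abcd3 at -0.21 ± 0.14, Pex11a at -0.21 ± 0.17 and Etfb at -0.17 ± 0.12. All of these were picked above for high values in controls, and those values enter this difference with a minus sign. The interval of Acadvl ran from -0.45 to 0.03. On the brightest probe sets the 95% interval of the difference lay within 1.5-fold in either direction for all 20 mitochondrial members and for 32 of the 37. For Ehhadh the difference was 0.28 ± 0.38, for Acox3 -0.23 ± 0.24 and for Abcd2 -0.30 ± 0.37.

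The strain comparison without WY14643 asked what the deletion changed at baseline. Mitochondrial members stood higher in 13 of 20 cases, with a median of 0.02, and peroxisomal ones in 6 of 16, with a median of -0.01, where 47.8% of all probe sets stood higher and the median was -0.01. Quantile normalization turned the mitochondrial direction, with 4 of 20 higher and a median of -0.03, and centring on the bright probe sets did so with 9 of 20 and -0.01. Centring on the median turned the peroxisomal one, with 10 of 16 higher and a median of 0.01. No member passed limma's test at an adjusted p under 0.05, which 0.00222% of all probe sets did. None had an unadjusted p under 0.05 either, where 1.66% of all probe sets were higher and 2.35% lower at that p. Groups overlapped for all 37 members, and 0.0688% of all probe sets had no overlap.

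Among the mitochondrial members the values nearest to a change were those of Cpt1a at 0.13 ± 0.12, Cpt2 at -0.11 ± 0.12 and Acads at -0.09 ± 0.08. The peroxisomal set spread further, with Abcd2 at 0.40 ± 0.26, Ehhadh at -0.24 ± 0.27 and Acot8 at -0.21 ± 0.17. Ehhadh stood at 0.03 with the atrial markers as a covariate, added after the data were seen, and the atrial markers themselves stood higher in del337TR by a median of 2.67. The part of atrial tissue in this value was not tested.

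Under WY14643 the strains were compared again. Of the mitochondrial members 14 of 20 stood lower in del337TR, with a median of -0.06, and of the peroxisomal ones 8 of 16, with a median of -0.03. After centring on the median 19 of 20 and 13 of 16 stood lower, after quantile normalization 13 and 9, and after centring on the bright probe sets 12 and 8. Over all probe sets 55.6% stood higher, with a median of 0.04, and over the bright ones 43.1%, with a median of -0.02. No member passed limma's test at an adjusted p under 0.05 (0% of all probe sets). At an unadjusted p under 0.05 stood 5 of 37 members on their brightest probe set, all lower, where 3.61% of all probe sets were lower and 5.25% higher at that p. Of the 1760 bright probe sets 129 were lower and 84 higher. Over all 71 probe sets of the members 7 were lower and 3 higher. No member separated the groups, which 0.107% of all probe sets did. This comparison shares the treated controls with that of WY14643 in controls, so high values in that group enter both.

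Cpt2 had the lowest log2 difference of the 37. Treated del337TR ran from 2460.3 over 2831.6 to 3312.4 against 2467.3 over 3520.4 to 4500.9 in treated controls, and all 7 del337TR arrays lay below the median of the controls. The log2 difference was -0.34 ± 0.12, a 0.788-fold level, with a limma adjusted p of 0.428 and an interval from -0.58 to -0.10. Over the alternatives the adjusted p of Cpt2 reached no lower than 0.244. Its dimmer probe set stood at -0.15 ± 0.18.

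Abcd3 ran from 1711.6 over 2014.7 to 2181.4 in treated del337TR, and all 7 arrays again lay below the median of treated controls. This gave a log2 difference of -0.27 ± 0.10, with a limma adjusted p of 0.438. As the mean of its probe sets it was -0.02, since the second, with a mean signal of 7.38, stood at 0.22 ± 0.49. Amacr, which turns branched chains into the form that peroxisomal oxidation accepts, ran from 704.2 over 774.0 to 862.9 in treated del337TR and from 708.8 over 889.4 to 1135.8 in treated controls. Its log2 difference was -0.19 ± 0.08.

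Acadvl stood at -0.19 ± 0.08, with 5 of 7 treated del337TR arrays below all treated controls. The shared probe set of Acaa1a and Acaa1b, the thiolases of the last peroxisomal step, stood at -0.20 ± 0.09. The brightest probe set that names Acaa1a alone stood at 0.21 ± 0.20, so the reads of this pair did not point 1 way. Acox3, Pex11a and Crat stood at -0.28 ± 0.17, -0.21 ± 0.12 and -0.14 ± 0.08.

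**Figure D3:**
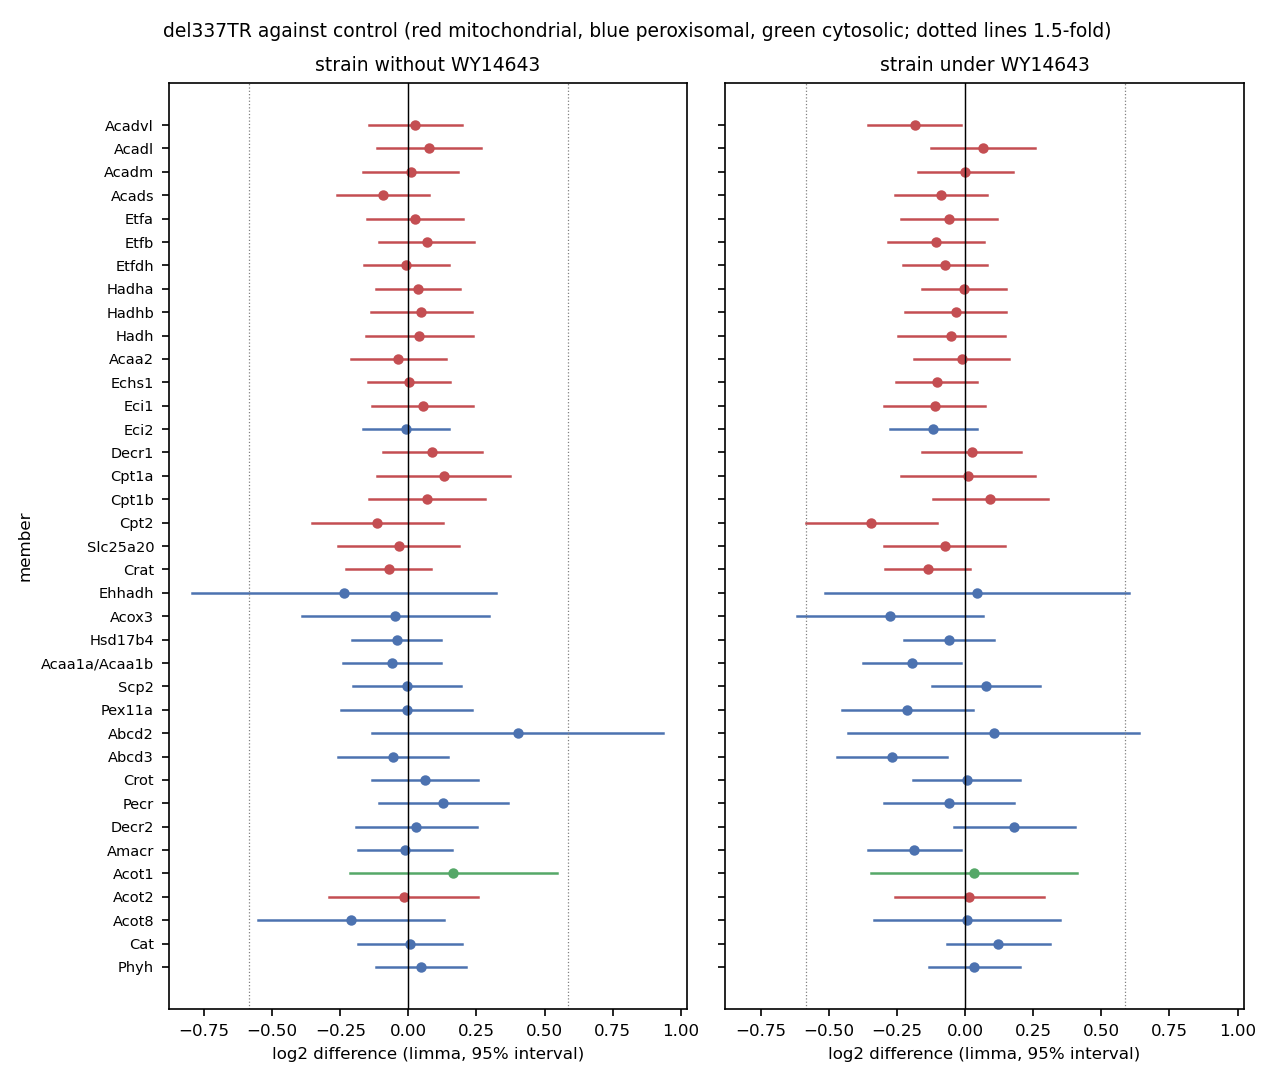
Log2 difference of each of the 37 member probe sets, del337TR against control, without WY14643 on the left and under it on the right, with limma's 95% interval as a line and colours by compartment. Without WY14643 20 of 37 points lie above 0, and under it 22 of 37 lie below 0, with Cpt2 lowest at -0.34.

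Averaging over the other factor set 14 arrays against 14. For WY14643 averaged over the strains 18 of 20 mitochondrial and 12 of 16 peroxisomal members stood higher, with medians of 0.07 and 0.05, where 48.5% of all probe sets and 80.5% of the bright ones did. After quantile normalization 10 of 20 mitochondrial members stood higher, and after centring on the bright probe sets 12 of 20 and 8 of 16. At an unadjusted p under 0.05 stood Acadvl (0.13 ± 0.06), Etfb (0.13 ± 0.06) and Acot2 (0.19 ± 0.09), all higher, where 2.96% of all probe sets were higher and 4.55% lower. Of the 1760 bright probe sets 99 were higher and 7 lower at that p. No member passed limma's adjusted test (0% of all probe sets).

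For the strain averaged over the treatments 7 of 20 mitochondrial and 7 of 16 peroxisomal members stood higher, with medians of -0.02 and -0.06, where 52.4% of all probe sets did. Centring on the median left 4 and 7 higher, quantile normalization 5 and 7. At an unadjusted p under 0.05 stood Cpt2 (-0.23 ± 0.08), Abcd3 (-0.16 ± 0.07) and the probe set of Acaa1a and Acaa1b (-0.13 ± 0.06), all lower, where 3.57% of all probe sets were lower and 4.09% higher. Of the 1760 bright probe sets 61 were lower and 89 higher at that p. No member passed limma's adjusted test (0% of all probe sets).

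The mitochondrial and the peroxisomal set were set against each other on each array, as the mean log2 signal of the 20 mitochondrial probe sets minus that of the 16 peroxisomal ones. This difference between the sets ran from 2.53 over a median of 2.75 to 2.89 in untreated controls and from 2.66 over 2.72 to 2.89 in treated controls. In del337TR it ran from 2.53 over 2.71 to 2.84 without and from 2.59 over 2.75 to 2.87 with WY14643. The ranges of all 4 groups lay on top of each other. The mitochondrial set was the brighter, with a mean of 12.28 against 9.58 in untreated controls. With WY14643 in controls 78.2% of the bright probe sets and 44.6% of all probe sets stood higher. The part of brightness in the difference between the sets was not tested. With WY14643 the difference between the sets moved by 0.05 ± 0.06 (SE) in controls and by 0.02 ± 0.06 in del337TR. With the strain it moved by 0.02 ± 0.06 untreated and by -0.01 ± 0.06 in treated animals, and the interaction was -0.02 ± 0.08. None of these 5 shifts exceeded its standard error on the brightest probe sets. Each changed sign under at least 1 alternative or without 1 of the arrays: for WY14643 in controls it ran from -0.04 after quantile normalization to 0.11 on probe sets with 1 symbol.

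Within the sets the arrays differed in other ways. The mean of the mitochondrial members spread least in treated controls, from 12.34 to 12.43 (SD 0.03), against an SD of 0.11 in untreated controls, 0.08 in untreated and 0.14 in treated del337TR. Replicate 4 of treated del337TR had the highest mitochondrial mean, 12.62. A member varied within the groups by a median SD of 0.14 in the mitochondrial and 0.16 in the peroxisomal set, and the means of the sets by 0.10 and 0.09, so members of a set tended to be high or low together on an array. This was not particular to the sets: the mean of the cardiomyocyte markers had SDs from 0.13 to 0.24 in the groups. The most variable members were Ehhadh (SD 0.52), Abcd2 (0.49), Acot1 (0.34), Acot8 (0.31) and Acox3 (0.31).

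**Figure D4:**
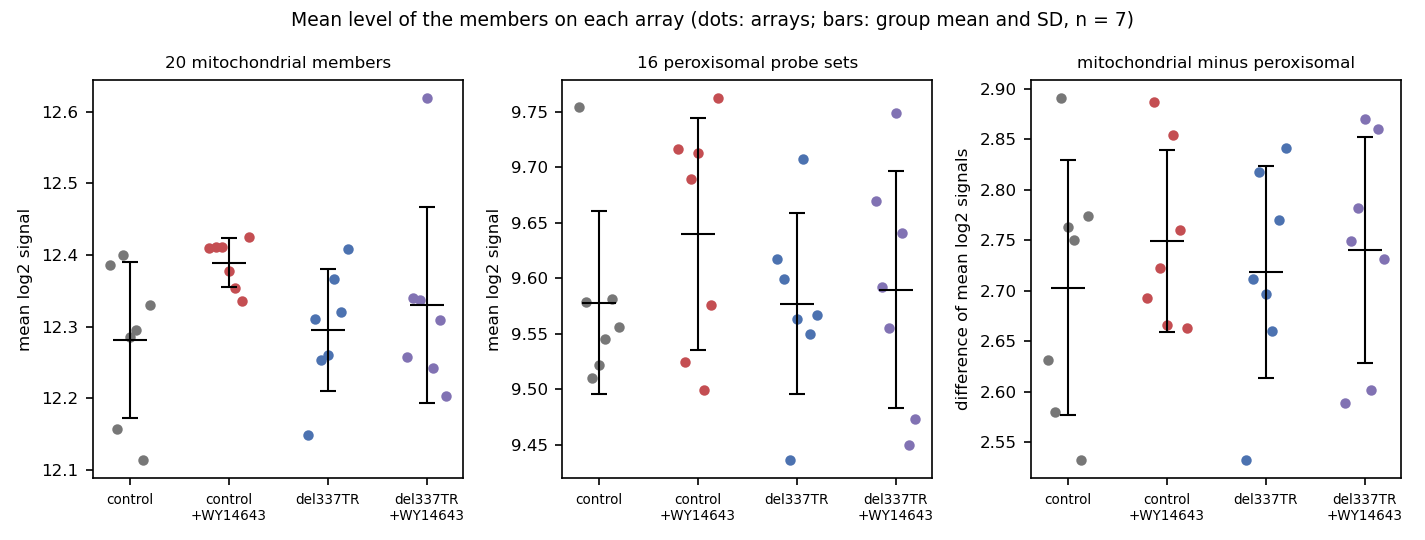
Mean log2 signal of the 20 mitochondrial members, of the 16 peroxisomal probe sets, and the difference between them, on every array of the 4 groups, with bars for the group mean and SD (n = 7). The 7 treated controls lie between 12.34 and 12.43 for the mitochondrial mean, and 1 treated del337TR array stands at 12.62. The differences between the sets span 2.53 to 2.89 over all arrays, and the ranges of the groups overlap.

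The intervals bound how large an unseen change could be on the brightest probe set of each member, under the scaling used. In each of the 4 comparisons between groups the 95% interval of all 20 mitochondrial members lay within 1.5-fold in either direction. Of the 37 members this held for 35 in the strain comparison without WY14643, 35 for WY14643 in controls, 34 for WY14643 in del337TR and 34 for the strain under WY14643. A change of 2-fold lay outside the interval of at least 35 members in each. These intervals are not adjusted for the number of members. They do not cover the dimmer probe sets of a gene or the shifts between scalings.

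Probe sets of 1 gene did not always point the same way. Of the 23 members with several probe sets 10 had opposite signs among them for WY14643 in controls, 14 for WY14643 in del337TR, 9 for the strain without and 13 for the strain under WY14643. Hadh is an example, with 3 probe sets at 0.05 ± 0.09, -0.04 ± 0.10 and 0.33 ± 0.14 for WY14643 in del337TR. None of the 71 probe sets passed limma's test in any of the comparisons. At an unadjusted p under 0.05 stood 3 higher and 1 lower for WY14643 in controls, where 2.39% of all probe sets were higher and 4.36% lower. For WY14643 in del337TR 2 were higher, where 2.95% of all probe sets were higher and 2.83% lower. For the strain without WY14643 2 were lower, where 1.66% of all probe sets were higher and 2.35% lower.

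Other genes of lipid handling were read from 7 lists with 114 entries, of which 103 were measured. The lists hold fatty acid uptake and activation, malonyl-CoA control, other dehydrogenases and ketone body use, other peroxisomal enzymes, peroxisome assembly, receptors with their coregulators, and further PPAR targets of muscle. None of the 103 passed limma's adjusted test in any comparison. With WY14643 in controls 58 of 103 stood higher, with a median of 0.04, and 4 were higher and 2 lower at an unadjusted p under 0.05, where 2.39% and 4.36% of all probe sets were. With WY14643 in del337TR 50 stood higher, with a median of -0.00, and 1 was higher and 3 lower at that p, where 2.95% and 2.83% of all probe sets were. Under WY14643 47 stood higher in del337TR than in control, with a median of -0.03, and 4 were higher and 11 lower at that p, where the shares over all probe sets were 5.25% and 3.61%.

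Dehydrogenases outside the members and genes of ketone body use formed 1 of the lists. In treated controls 12 of its 14 measured genes stood higher, with a median of 0.17, where 44.6% of all probe sets and 78.2% of the bright ones did, led by Oxct1, the transferase that activates ketone bodies, at 0.20 ± 0.08. In del337TR 5 of 14 stood higher with WY14643, with a median of -0.01, where 53.1% of all probe sets and 63.4% of the bright ones did. Under WY14643 11 of 14 stood lower in del337TR, led by Acad11, a long chain dehydrogenase, at -0.38 ± 0.13. There 55.6% of all probe sets and 43.1% of the bright ones stood higher. The list of fatty acid uptake and activation went another way. Of its 14 measured genes 8 stood higher with WY14643 in controls, 12 with WY14643 in del337TR and 9 for the strain under WY14643. Peroxisome assembly genes stood higher in 10 of 17 cases with WY14643 in controls. Of the 15 measured PPAR targets of muscle 7 stood higher with WY14643 in controls, with a median of -0.10, where 44.6% of all probe sets did. Among them Ucp3, an uncoupling protein, stood at 0.40 ± 0.28, Angptl4 at -0.71 ± 0.46 and the dim Cyp4a14 at -0.92 ± 0.63. In del337TR against control under WY14643 7 of these 15 stood higher, with a median of -0.01, where 55.6% of all probe sets did. There Ucp3 stood at -0.87 ± 0.28 (limma adjusted p = 0.428) and Cyp4a14 at 1.23 ± 0.63.

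Markers of heart muscle and of other cells were read in the same comparisons. The 9 cardiomyocyte markers all stood higher with WY14643 in controls, by a median of 0.15, and 8 of 9 in del337TR, by 0.08. Of the bright probe sets 78.2% stood higher in controls and 63.4% in del337TR, and of all probe sets 44.6% and 53.1%. The summed signal of the cardiomyocyte markers ran from 104906 to 144216 in untreated and from 119429 to 156291 in treated controls. Endothelial markers stood higher in 0 of 5 cases with WY14643 in controls (median -0.12) and fibroblast markers in 2 of 6 (median -0.27). For the strain under WY14643 6 of 6 fibroblast markers (median 0.23) and 4 of 5 endothelial markers (median 0.11) stood higher in del337TR, and 0 of 4 white adipocyte markers did (median -0.81). There 55.6% of all probe sets stood higher. Without WY14643 5 of 6 fibroblast markers (median 0.23) stood higher in del337TR, where 47.8% of all probe sets did. With WY14643 in del337TR 2 of 5 endothelial markers (median -0.08) and 2 of 6 fibroblast markers (median -0.12) stood higher. None of these markers passed limma's adjusted test, and the part of the makeup of the tissue in the members' values was not tested.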

How the data were processed

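Each deposited array column held linear intensity values, 1 for each probe set. The submitters' processing notes name RMA, with its version not given in the sources used here, but the values were not on a log scale and after trimming 2% from both ends the mean of every array was 250, so they were treated as globally scaled signals. No filter on low values was applied. Signals were floored at 0.1 (3 values at 0), log2 transformed and fitted over all 28 arrays by group with limma 3.58.1 in R 4.3.3, without covariates or a block. The 64 control probe sets were left out, and the Benjamini-Hochberg adjustment ran over 45037 probe sets, with a threshold of 0.05. All tests were two-sided. The fit was tested on simulated data. Members, lists and tests were chosen with earlier results of these data known. Every member is accounted for. A full account went to members with an unadjusted p under 0.05 in any comparison and to the 3 largest differences of each set. From the lists up to 3 genes with the smallest p could be named. Replicate numbers did not pair the arrays: deviations of same-numbered arrays correlated between -0.21 and 0.27 (median 0.04, 42 pairs). Identical values were found in 0 of 378 array pairs. The alternatives were 16 added to the signals, a filter at the 40th percentile, quantile normalization, centring, other variance settings, array weights, only the groups compared, a replicate block, the first residual component, other choices of probe set, and leaving out each array. A further alternative left out the members with more than 1 location. Covariates for sex, atrial tissue and fat, and centring on bright probe sets, were added after the data were seen. Promoter sequences came from RefSeq, build GRCm38.p6.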

Additional observations from a re-analysis of the deposited data

Results flagged for a closer look

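In 160 sets of 7 arrays, made of the members and the means of the sets in each group, 11 held an array whose gap to its nearest neighbour was large for the range of its group, where chance gives about 1 in 20. Of these 5 were on replicate 4 of treated del337TR. There Eci1 stood at 8759.8 (next 6867.4), Decr1 at 8756.2 (next 7279.0), Cpt1b at 5621.1 (next 4778.4), Acot2 at 1707.1 (next 1131.6), and the mitochondrial mean at 12.62 (next 12.34). Replicate 7 of the treated controls was the highest of its group for Acadvl, at 10004.0 (next 8520.9), and for Etfa, at 9979.1 (next 8657.5).

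In untreated del337TR Cpt2 stood highest on replicate 7, at 3356.6 (next 2859.7), and Abcd3 on replicate 5, at 2131.2 (next 1921.0). Echs1 stood lowest on replicate 1, at 4983.1 (next 5798.0). The mean of the peroxisomal set was highest on replicate 1 of the untreated controls, at 9.75 (next 9.58).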

How the results depend on the processing

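No member passed the threshold under any alternative or without any 1 of the 28 arrays, and of the 38 member differences followed through the alternatives 7 turned, 1 of them (Abcd2 for the difference of the effects) under 2 alternatives. As the mean of its probe sets Abcd2 stood at -0.42 for the strain without WY14643 and at 0.22 for the difference of the WY14643 effects. On probe sets with 1 symbol Acaa1a stood at 0.21 for the strain under WY14643 and at 0.18 for the strain averaged over treatments. With the atrial markers as a covariate Ehhadh stood at 0.0340 for the strain without WY14643. With the adipocyte markers as a covariate Abcd2 stood at 0.0216 and Cpt1a at 0.0671 for WY14643 in del337TR, and Abcd2 at 0.30 for the difference of the effects. The peroxisomal median of the difference of the effects moved from -0.08 to -0.18 with centring on the median and to 0.0618 with the mean of the probe sets. The cause of these shifts was not tested. With the replicate number as a block the mitochondrial median for WY14643 in controls was 0.10 as without it, and the replicate block brought 0 members past the threshold in every comparison. Some medians of the sets lay so near 0 that they changed sign under some scalings, as given beside them. The mitochondrial median for WY14643 in controls kept its sign and ran from 0.01 to 0.16 over the alternatives. Dim probe sets, such as those of Abcd2 and Acox3, limit what can be said of these genes.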
